A study of Drosophila melanogaster with 8 samples.

Results

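The genes described here encode the subunits of the vacuolar H+ ATPase, taken as all protein-coding genes of the Drosophila melanogaster annotation whose symbol starts with Vha. There were 33 such genes among 13986 protein-coding genes. Of these, 13 encode subunits of the V1 sector, 18 encode subunits of the V0 sector and 2 encode accessory subunits. The measurement was anti-FLAG chromatin immunoprecipitation sequencing (ChIP-seq) from heads of adult flies aged 1 to 3 days, with males and females in about equal parts. The 3xFLAG-Da flies carry a triple FLAG tag on endogenous Daughterless (Da), a basic helix-loop-helix E-protein that binds E-boxes (CANNTG). The Control flies were of the white* line, in which the tagged line had been made and which has no FLAG sequence. There were 2 immunoprecipitated (IP) libraries of each genotype, each with an input library of its own, 8 samples in all. Heads were pooled, so no signal can be given to neurons, glia, eye or other cells of the head, and peak lists carry no expression level by which the tissue label could be checked against marker genes.

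The vacuolar H+ ATPase is a rotary proton pump of lysosomes, endosomes and secretory vesicles, and in neurons also of synaptic vesicles, where the proton gradient it builds drives the loading of neurotransmitter. Its cytosolic V1 sector hydrolyses ATP and turns a central stalk, and the stalk turns a ring of proteolipids in the membrane-bound V0 sector past the a subunit, through which protons pass. In flies several subunits are encoded by a small family of paralogues, of which 1 is commonly expressed in most tissues and others mainly in the testis or in stretches of the gut. From such general knowledge 15 members were classed as widely used and 13 as tissue-restricted, at a time when earlier results of these data were known. Another 5 (Vha100-1, Vha100-5, VhaM9.7-a, VhaM9.7-c and VhaAC45RP) were left without a class. The protein ATP6AP2, known in flies as VhaM8.9, carries another symbol in this annotation and is therefore described with the partner genes below.

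The 3xFLAG-Da IP lists held 10915 and 8745 peaks and the Control IP lists 453 and 707. Background coverage, worked out from the peak values, was 9.36 and 4.17 fragments a position for the 3xFLAG-Da libraries and 1.92 and 1.72 for the Control libraries. Depth and genotype thus moved together, and a peak missing from a Control list is weaker evidence of absence than one missing from a 3xFLAG-Da list. Each peak comes with a fold, the fragment pileup at its summit divided by the local background of its input, after 1 is added to each. Since folds of libraries of unequal depth are not on a common scale, each is also given by its rank or percentile within its own list.

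First, it was asked how many Vha genes had a peak whose summit lay at most 1000 bp from any of their transcript starts. In 3xFLAG-Da IP replicate 1, 20 of the 33 Vha genes had one (60.6%), beside 55.5% of all protein-coding genes. In 3xFLAG-Da IP replicate 2, 18 had one (54.5%), beside 44.3% of all genes. No Vha gene had a peak in Control IP replicate 1, where 2.65% of all genes did. In Control IP replicate 2, 3 Vha genes had one (9.09%), beside 4.69%. The mean was 19.0 ± 1.41 genes (SD, n = 2) in 3xFLAG-Da heads and 1.5 ± 2.12 (SD, n = 2) in Control heads, a difference of 17.5 genes. Every 3xFLAG-Da library was above every Control library, and p was 0.333 in an exact two-sided permutation of the 4 libraries, the smallest that 2 against 2 allow. Both 3xFLAG-Da lists held a peak at the same 18 genes (54.5%), beside 42.9% of all genes. As a whole the family was therefore only somewhat above the genome in the share of genes with a peak, and no test of that difference was made.

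The family divided along its paralogues. All 15 widely used genes had a peak in replicate 1 and all 15 in replicate 2. Of the 13 tissue-restricted genes, 2 had one, Vha36-3 and Vha16-5, and they were the same 2 in both replicates (15.4%). The background of 42.9% for a peak in both lists lay between these shares. Among the 5 genes without a class, Vha100-1, VhaM9.7-a and VhaM9.7-c had a peak in replicate 1, and VhaM9.7-c alone had one in replicate 2. The 3 Control peaks all lay at widely used genes, Vha55, Vha26 and Vha100-2. Since the classes were drawn up with results of these data known, the division is not independent evidence. Genes are not replicates of a class, so these counts are a description and no test was run on them. Expression in heads was not measured in these files, and its part in the division was not tested.

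**Figure D1:**
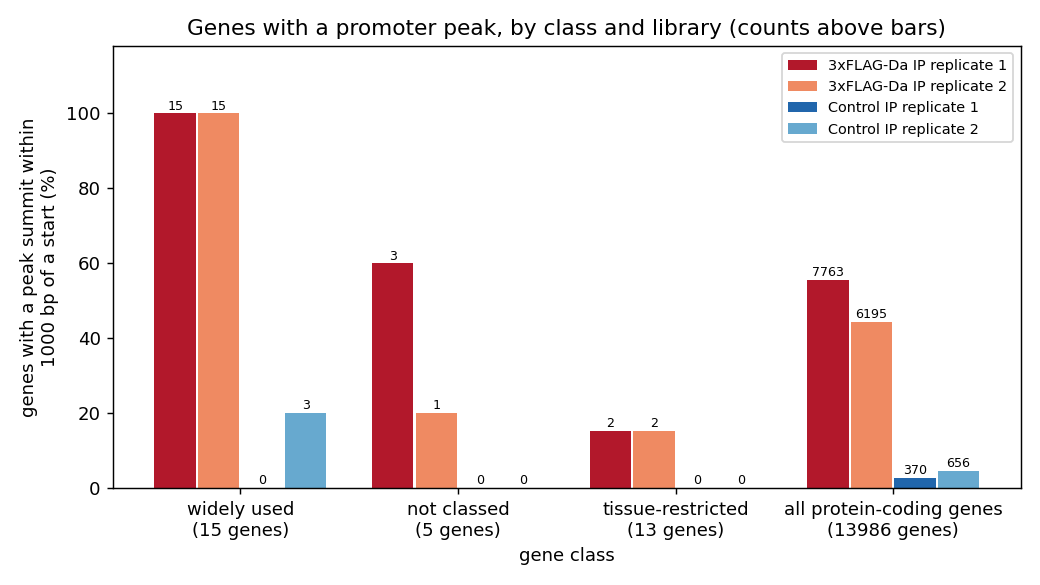
Bars give the percentage of genes with a peak summit within 1000 bp of a transcript start, by gene class (horizontal axis) and IP library (colour), with the number of genes above each bar. In both 3xFLAG-Da libraries the widely used Vha genes stand at 15 of 15 and the tissue-restricted ones at 2 of 13, on either side of all protein-coding genes (55.5% and 44.3%).

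The classes also differed in how close other genes lay. A start of another gene lay within 1000 bp of 10 of the 15 widely used genes (66.7%) and of 4 of the 13 tissue-restricted genes (30.8%), beside 48.2% of all protein-coding genes. At all 10 widely used genes the nearest such neighbour was divergently transcribed. The comparison was therefore repeated over genes with no other start within 1000 bp. Here 5 of 5 widely used genes (Vha68-2, VhaSFD, Vha16-1, VhaPPA1-1 and VhaAC39-1) had a peak in both 3xFLAG-Da lists, and 0 of 9 tissue-restricted genes did in either. Of the 7245 protein-coding genes that stand alone in this way, 38.5% had a peak in replicate 1, 29.4% in replicate 2 and 27.9% in both, and 25.9% held a shared peak region free of Control peaks. These counts rest on few genes, and the part of neighbouring starts in the division was not tested.

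Of the V1 genes, 10 of 13 (76.9%) had a peak in both replicates, beside 42.9% of all protein-coding genes. The catalytic head of V1 is built of subunits A and B, between which ATP is bound and hydrolysed. Vha55, the only gene of subunit B, had the strongest promoter peak of the family. Its folds were 13.1 (rank 87 of 10915) and 22.5 (rank 36 of 8745) for 3xFLAG-Da replicates 1 and 2, with summits 72 and 70 bp upstream of the start. The pileups there were 255 and 194 fragments. It also had a peak in Control IP replicate 2, 86 bp upstream of the start, with a fold of 4.64 (rank 524 of 707) and a pileup of 20 fragments, and none in Control IP replicate 1. The strongest region of the family was therefore 1 of those that the untagged line also yielded in 1 library, and by the rule used here it did not count as a site absent from Control. The peak lay between Vha55 and Snx3, a sorting nexin of endosomes that is transcribed in the opposite direction from 202 bp away. Its 101 bases around the replicate 1 summit, at 3R:12627851-12627951 of the Release 6 genome on the strand of Vha55, are shown because this window carried the highest folds, with its E-boxes in capitals:

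Vha55: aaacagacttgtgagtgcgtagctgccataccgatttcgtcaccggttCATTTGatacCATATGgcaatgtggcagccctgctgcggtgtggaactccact

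These E-boxes are CAAATG, here read from the other strand, and CATATG. The E-box most commonly found under E-proteins is CAGCTG, and it was not in this window. A close relative known to be bound by the same proteins is CAGGTG, which was not there either. A further variant, CAGATG, was also missing, and these 3 are called preferred E-boxes from here on. Vha55 had further, weaker peaks inside an intron, 541 bp downstream of the start in replicate 1 (fold 2.28) and 597 bp downstream in replicate 2 (fold 3.71). These overlapped each other and no Control peak, and gave the gene its only site absent from Control. Unlike the promoter window, this site held preferred E-boxes, though in replicate 2 alone. There a CAGCTG lay at the summit, and a copy of CAGGTG was also found within 50 bp of it. The only E-box within 50 bp of the replicate 1 intron summit was CACATG.

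Subunit A is encoded by 3 genes on 2L. Vha68-1 had folds of 6.81 and 5.50 for 3xFLAG-Da replicates 1 and 2. Its summits differed between replicates, lying 173 bp upstream of the start, between genes, in replicate 1 and 40 bp downstream, in the untranslated part of its exon, in replicate 2. The divergent neighbour, 373 bp away, is mTor, the growth-controlling kinase that is known to be switched on at lysosomes together with this pump. Vha68-2 had folds of 5.12 and 5.72, with summits 110 and 109 bp upstream. Its tandem neighbour Vha68-3, which begins 178 bp after the end of Vha68-2, had no peak in any list, and the nearest summits lay 4574 and 4573 bp from its start. The summits at Vha68-2 lay between genes in a window, at 2L:12974162-12974262 on the strand of the gene, that holds no E-box at all and is shown for contrast with that of Vha55:

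Vha68-2: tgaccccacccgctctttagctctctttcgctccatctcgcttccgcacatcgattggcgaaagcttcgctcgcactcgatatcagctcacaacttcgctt

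The subunits of the central stalk are D and F. Vha36-1, the widely used D gene, had a fold of 4.15 with the summit at its start in replicate 1 and 6.22 with the summit 24 bp upstream in replicate 2. Vha36-2, a restricted D gene, had no peak. Vha36-3, also restricted, was the exception, with folds of 5.31 (rank 3107) and 9.47 (rank 969) and summits 7 and 6 bp upstream of its start, as close between replicates as those of Vha68-2. The start of AANATL7, an arylalkylamine N-acetyltransferase-like gene, lay 391 and 392 bp from these summits. The Vha36-3 summits lay beside a pair of CAGCTG E-boxes, centred 6 bp upstream and 8 bp downstream of the start, which are shown in capitals on the strand of the gene at X:2580537-2580580 because this was the only tissue-restricted gene with a preferred E-box at its summit:

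Vha36-3: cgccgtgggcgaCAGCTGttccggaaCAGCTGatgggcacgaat

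For subunit F, Vha14-1 had low folds of 3.70 and 4.78, with summits 82 and 13 bp upstream, and its restricted paralogue Vha14-2 had no peak, its nearest summits lying 19273 and 21538 bp away.

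The peripheral stalks, which hold the catalytic head still against the turning stalk, contain subunits E and G and are joined to V0 through C and H. Vha44, the gene of subunit C, had folds of 8.40 (rank 835) and 11.1 (rank 644). Its summits lay 103 and 114 bp upstream of Vha44 but only 20 and 9 bp from the start of Hmgs, the hydroxymethylglutaryl-CoA synthase of the mevalonate pathway. This peak could not be given to 1 of these genes. Vha26, the gene of subunit E, had folds of 8.30 and 5.91, with summits 143 and 132 bp upstream, between Vha26 and the splicing factor gene noi. In Control IP replicate 2 a peak lay 153 bp upstream with a fold of 5.75 (rank 306 of 707). The pileups of the 3 peaks were 160, 40 and 20 fragments. The Control fold was close in number to that of 3xFLAG-Da replicate 2, though folds of libraries of unequal depth are not on a common scale. No Vha26 site absent from Control was left, the only widely used gene of which this was true. Vha13, the gene of subunit G, had folds of 5.36 and 10.1, with the summit 55 bp downstream of the start in replicate 1 and 49 bp upstream in replicate 2. VhaSFD, the gene of subunit H, which in yeast silences V1 once it is released from V0, had folds of 4.80 and 6.04. Its summits lay 22 and 79 bp downstream of the start, in the untranslated part of an exon, with a CAGCTG centred 40 bp downstream between them. This is shown because VhaSFD has no other gene start within 1000 bp, on its own strand at 2L:16727771-16727800:

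VhaSFD: cacaagaccagtCAGCTGaatttcggtgct

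Of the V0 genes, 9 of 18 had a peak in the first 3xFLAG-Da list, below the 55.5% of all genes, and 7 of 18 in the second, below 44.3%. The a subunit forms the path of the protons across the membrane and decides to which organelle the pump is sent. Vha100-2 had the second highest folds of the family, 11.2 (rank 209) and 15.9 (rank 182), with summits 518 and 553 bp upstream of a start. They lay 22 and 13 bp from a start of Vti1b, a SNARE gene of endosomal fusion, and could not be given to Vha100-2 alone. An E-box lay within 50 bp of the replicate 1 summit, CACCTG on the strand of Vha100-2 (CAGGTG on the other), shown at 3R:18399638-18399667:

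Vha100-2: tgtgcgtggagcCACCTGttaacactttat

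A weaker peak lay upstream of another start of Vha100-2, with folds of 5.70 and 4.13 and summits 346 and 295 bp upstream. A start of Vti1b was nearer to these summits, 279 and 228 bp away, so this peak could not be given to Vha100-2 alone either. Control IP replicate 2 had a peak there too, 212 bp upstream, with a fold of 5.14 (rank 413 of 707) and a pileup of 16 fragments. Vha100-1, the a subunit of neurons and photoreceptors, had a fold of 4.67 in replicate 1, 84 bp from the start of the augmin subunit gene dgt6, and no peak in replicate 2, where the nearest summit was 7421 bp away. The a gene known for its neuronal use was therefore not among those with a peak in both replicates. Replicate 2 was the shallower 3xFLAG-Da library (background coverage of 4.17 beside 9.36). Of all protein-coding genes, 7763 had a peak in replicate 1 and 5994 in both. Vha100-3, Vha100-4 and Vha100-5 had no peak. Vha100-4 begins 7123 bp from Vha100-2 in the same cluster, and the nearest summits lay 3629 and 3565 bp from its start.

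The proteolipid ring is made of c and c'' subunits. Vha16-1, the widely used c gene, had folds of 5.63 (rank 2723) and 9.52 (rank 951), with summits 89 and 53 bp upstream and no other gene start within 1000 bp. Vha16-2, Vha16-3 and Vha16-4, the first a tandem pair with the second, had no peak in any list. Vha16-5 had the lowest folds of the genes with a peak in both lists, 3.48 and 3.47, and its summits lay 279 and 301 bp upstream of its own start but 23 and 1 bp from the start of the zinc finger gene CG12299. VhaPPA1-1, the c'' gene, had folds of 7.45 and 8.57 with summits 153 and 115 bp upstream. Its restricted neighbour VhaPPA1-2, whose start lies 3784 bp away, had no peak, the nearest summits being 1971 and 1952 bp from its start.

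Subunit d couples the stalk to the ring. VhaAC39-1 had folds of 4.87 and 6.31, with summits 28 and 50 bp downstream of the start, and VhaAC39-2 had no peak, its nearest summits lying 1478 and 1479 bp away. The small e subunits were split. VhaM9.7-b, the widely used one, had folds of 5.22 and 4.62, 199 bp upstream and 5 bp downstream of the start, and shares a divergent promoter region with COX8, a cytochrome oxidase subunit. VhaM9.7-c had folds of 4.92 and 6.39, 37 and 29 bp downstream of its start, in the untranslated part of its exon, and it lies inside introns of CG18675 and Teh2. A CAGATG, centred 30 bp downstream of the start, is shown because it lay within 50 bp of the summits of both replicates, on the strand of VhaM9.7-c at 3L:4186820-4186849:

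VhaM9.7-c: tttccgccaacaCAGATGattgattaaaaa

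VhaM9.7-a had a fold of 4.66 in replicate 1, 22 bp from the start of CG11586, and none in replicate 2. VhaM9.7-d had no peak. Of the accessory genes, VhaAC45, whose product guides assembly and sorting of the pump in other animals, had folds of 7.82 (rank 1072) and 10.4 (rank 749) with summits 210 and 184 bp upstream, about midway to Gnptab, the phosphotransferase that in mammals tags lysosomal enzymes. Its paralogue VhaAC45RP had none.

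**Figure D2:**
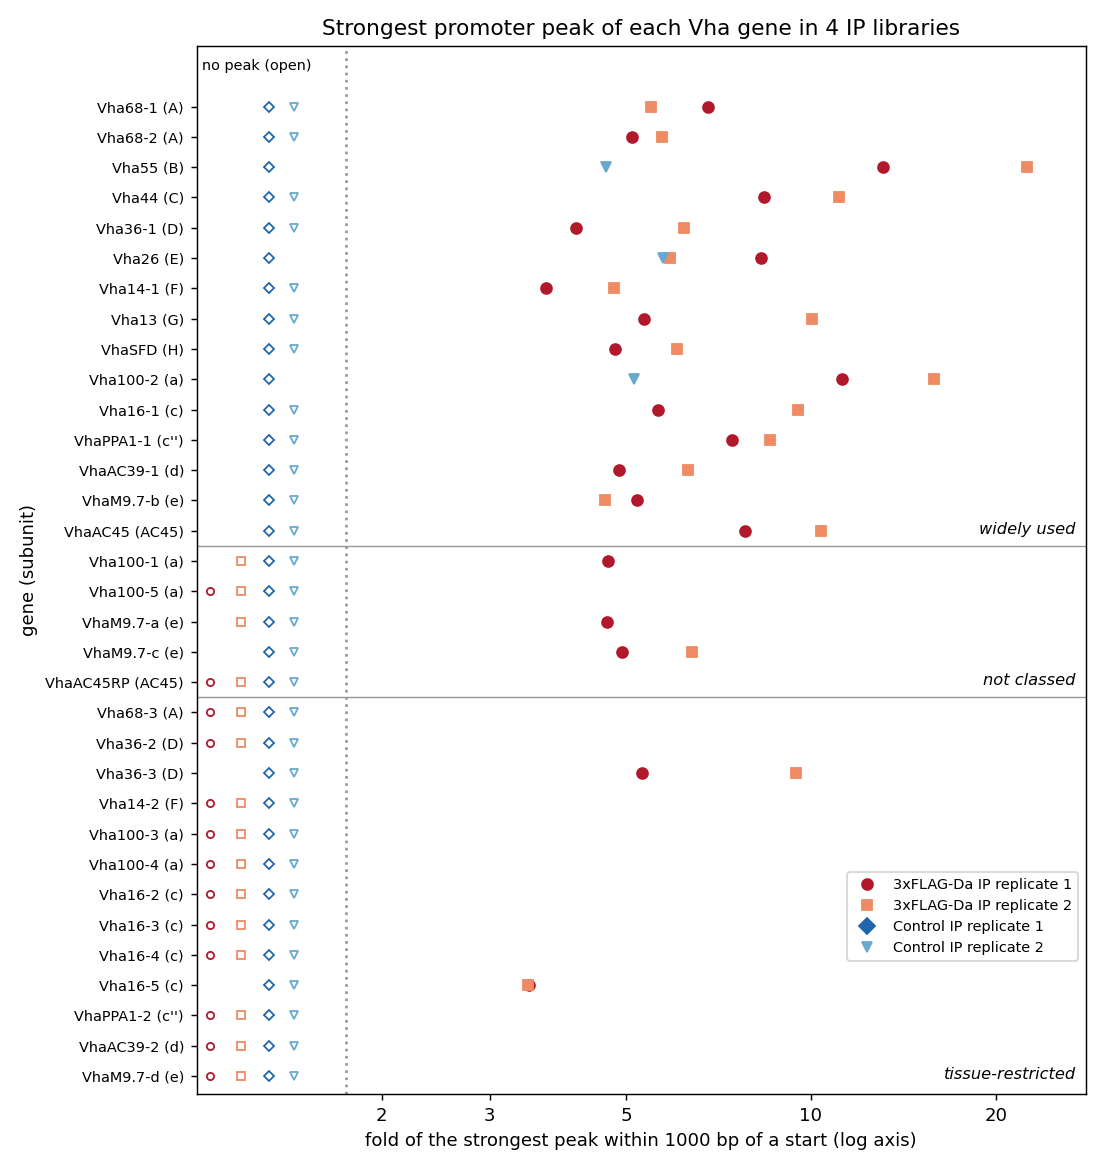
Fold of the strongest peak within 1000 bp of a start (horizontal axis, log scale) for each of the 33 Vha genes, with the subunit in brackets and 1 marker per IP library. Open markers at the left stand for no peak. Vha55 (13.1 and 22.5) and Vha100-2 (11.2 and 15.9) lie furthest right, and the Control markers stand at Vha55, Vha26 and Vha100-2 in replicate 2.

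In fold rank, the Vha peaks were not set apart from other promoters. The strongest peak of each gene had a median fold percentile of 70.9 within its list in replicate 1 and 70.4 in replicate 2, beside 68.2 and 64.4 over all protein-coding genes with a peak. Of the Vha genes with a peak, 8 of 20 and 8 of 18 (44.4%) lay above the fold percentile of 75 of their list, beside 40.8% and 37.3% of all genes. Values ranged from 40.7 (Vha16-5) to 99.2 (Vha55) in replicate 1 and from 19.9 to 99.6 at the same genes in replicate 2. Within the family, Vha55, Vha100-2, Vha44, VhaAC45 and VhaPPA1-1 stood at 85.1 or higher in both lists. Vha14-1 and Vha16-5 were below the 68.2 and 64.4 of all genes in both.

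**Figure D3:**
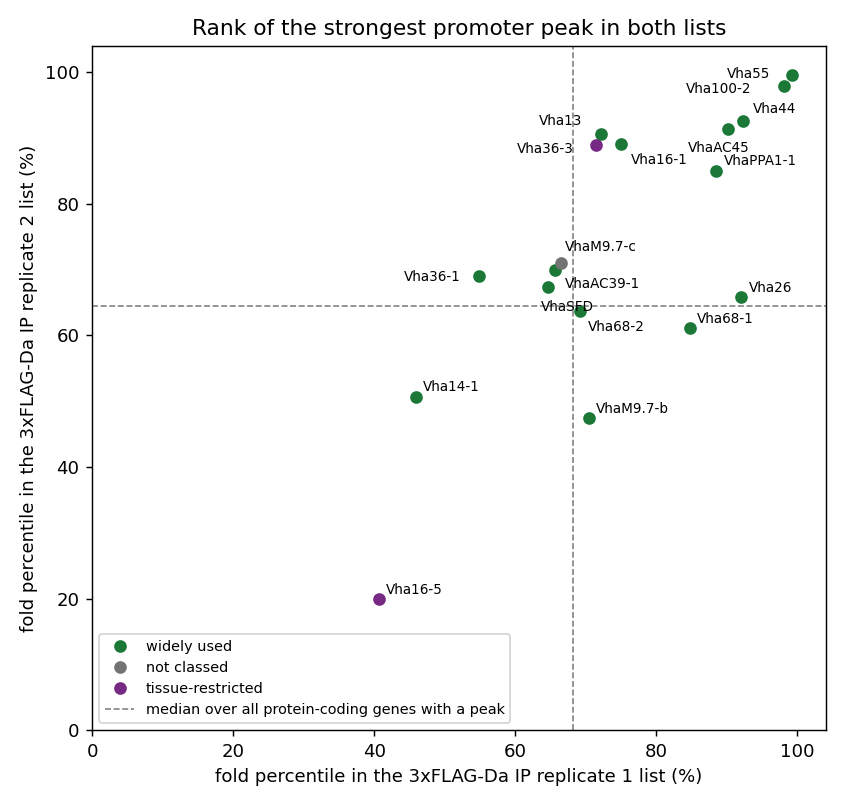
Fold percentile of the strongest promoter peak in 3xFLAG-Da IP replicate 1 (horizontal) against replicate 2 (vertical) for the 18 Vha genes with a peak in both lists, coloured by class. Dashed lines give the median over all protein-coding genes with a peak (68.2 and 64.4). Vha55 is at the top right and Vha16-5 at the bottom left.

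The summits were close to transcript starts. In replicate 1, 18 of 20 strongest summits lay within 250 bp of a start, beside 78.5% of all genes with a peak, and in replicate 2 16 of 18 (88.9%), beside 74.8%. Upstream of the start were 15 of 20 and 13 of 18 (72.2%), beside 74.2% of all genes with a peak in replicate 1 and 4152 of 6195 in replicate 2. Relative to the start, their median position was -106.5 bp in replicate 1 and -51.0 bp in replicate 2, beside -95.0 and -63.0 bp over all genes with a peak. Among these strongest summits, those beyond 250 bp were at Vha100-2 and Vha16-5 in both replicates, and both lay next to the start of another gene. Altogether 14 of 20 and 12 of 18 summits had a start of another gene within 1000 bp, and a Vha start was the nearest of all starts in 15 and 15. Measured from gene starts, genes with a peak in both lists had such a neighbour at 12 of 18 Vha genes. The same held for 3973 of 5994 protein-coding genes, so the family was not set apart in this.

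**Figure D4:**
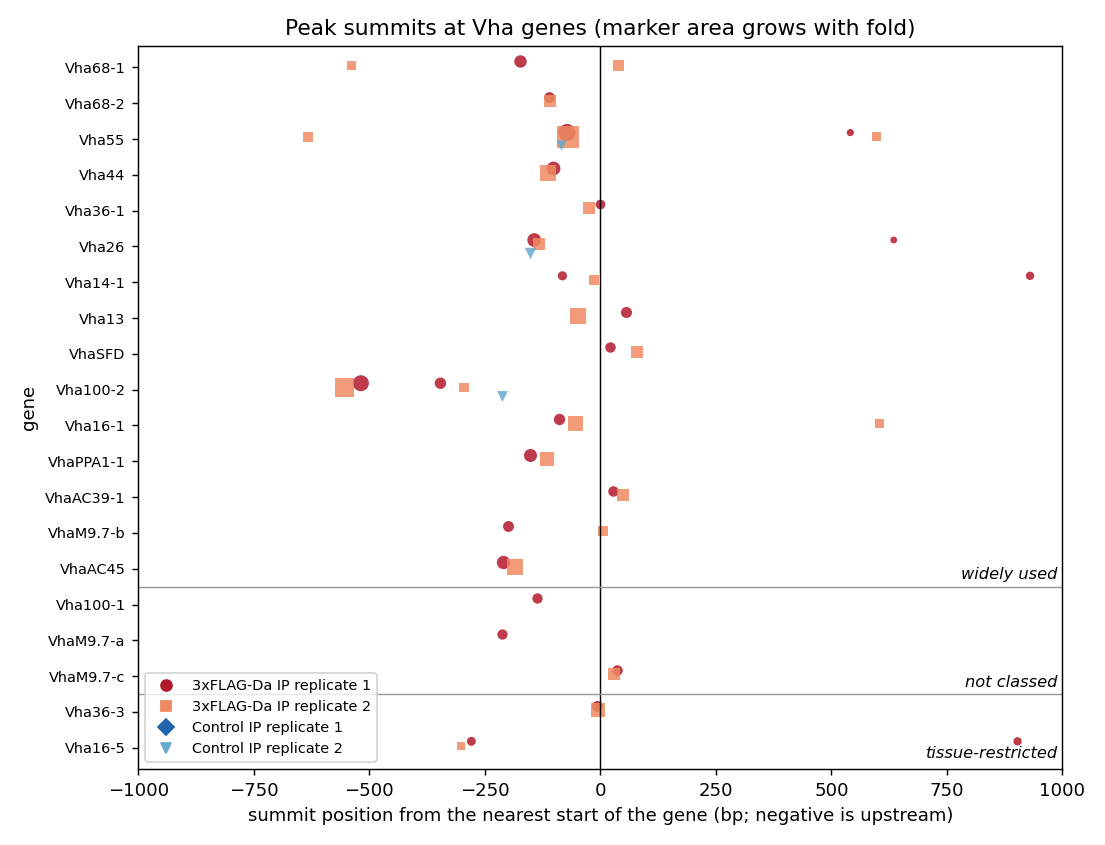
Position of each peak summit from the nearest start of its Vha gene (horizontal axis, bp, negative is upstream) for the 20 genes with a peak. Marker shape and colour give the library and marker area grows with fold. Most of the large markers lie within 250 bp of the start. The strongest summits outside are those of Vha100-2 (518 and 553 bp upstream) and Vha16-5 (279 and 301 bp upstream), and further, weaker summits lie beyond 250 bp at Vha68-1, Vha55, Vha26, Vha14-1, Vha16-1, Vha16-5 and Vha100-2. Control peaks occur in replicate 2 only.

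Next, sites were defined as regions where peaks of both 3xFLAG-Da lists overlapped and no Control peak did. Vha promoters held 20 shared regions, of which 3 overlapped a Control peak and 17 did not. Of all shared regions of the genome, at promoters or not, 588 of 7237 overlapped a Control peak. The 17 Vha sites belonged to 17 genes (51.5% of the family), beside 38.7% of all protein-coding genes. They were 14 of the 15 widely used genes, Vha26 being the other, 2 of 13 tissue-restricted genes and VhaM9.7-c. Since the Control libraries were shallower, the chance was computed that each 3xFLAG-Da peak, thinned to the depth of each Control library, would still have been called. Both peaks had a chance of at least 0.95 in both Control libraries at 6 of the 17 sites, those of Vha68-1, Vha44, Vha100-2, Vha16-1, VhaPPA1-1 and VhaAC45. Over all sites of the genome, at promoters or not, the same held for 1436 of 6649. At the other 11 Vha sites a peak of the same strength could have been missed at the depth of the Control libraries. The lowest chance, 0.0817, was at the intron site of Vha55.

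The 101 bases centred on each strongest summit were searched for all 10 E-boxes on both strands. CAGCTG was present at 4 of 20 Vha genes in replicate 1 (Vha44, Vha36-3, VhaSFD and VhaAC45), beside 11.1% of all genes with a peak. In replicate 2 it was present at 4 of 18 (Vha44, Vha36-3, Vha14-1 and VhaSFD), beside 13.9%. Any preferred E-box was found at 35.0% and 33.3% of Vha genes, beside 18.8% and 23.7%. Any E-box was found at 13 genes in each list (65.0% and 72.2%), beside 42.2% and 47.7%. At 5 genes a preferred E-box was present in both lists, namely Vha44, Vha36-3, VhaSFD, Vha16-1 and VhaM9.7-c. Vha44 had 2 copies of CAGCTG in the window of each replicate. With a window of 100 bp each side, CAGCTG was at 4 of 20 Vha genes in replicate 1, beside 19.5% of all genes with a peak, so that the higher share at 50 bp was no longer seen, and at 8 of 18 in replicate 2, beside 23.4%. The shares at 50 bp rest on at most 13 genes each and no test was made of them. A word in the window does not show that it was bound.

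The partner genes of the pump were examined for comparison. The list held Mitf, the fly member of the MiT/TFE factors that in flies and mammals activate genes of lysosomes and of this pump, Rbcn-3A and Rbcn-3B, which assist pump assembly, mtd, an Oxr1-like protein that in yeast acts on the pump, RagA-B, RagC-D and Lamtor1 to Lamtor5, the lysosomal platform on which mTor is activated, and ATP6AP2. Of these 12 genes, 12 had a promoter peak in replicate 1 and 8 in replicate 2, again beside 55.5% and 44.3% of all genes. In either Control list 0 had one, where only 2.65% and 4.69% of all genes did. All 8 with a peak in replicate 2 held a site absent from Control (8 of 12), beside 38.7% of all protein-coding genes. Rbcn-3A had the highest fold in replicate 1 (9.64, rank 466, with 5.22 in replicate 2) and mtd in replicate 2 (8.69, rank 1262, with 4.08 in replicate 1). ATP6AP2 had folds of 6.01 and 3.53. Mitf, Lamtor1, Lamtor4 and Lamtor5 had a peak in replicate 1 alone, with folds of 3.38, 4.20, 3.00 and 2.82.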

How the data were processed

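Anti-FLAG ChIP-seq peak lists of 4 IP libraries were analysed. Per the study's methods, the authors mapped reads to BDGP6.32 with Bowtie2 2.5.1, kept those with mapping quality of at least 20, removed duplicates with SAMtools 1.12, and called peaks with MACS2 2.2.7.1 at q of 0.05, each IP against its own input. The deposited values per peak are a fold (a ratio), −log10 p-values and q-values, and a score, which was not used. From fold and −log10 p, the pileup and local background were recovered for 100.0% of peaks. For each, a whole fragment count gave the deposited −log10 p to within 0.002. Total reads were not used here, so the depth is known only as this background coverage.

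Transcript starts came from Ensembl models (BDGP6.54), on the same Release 6 assembly. Sequences were read from the RefSeq Release 6 genome, where 99.8% of 30618 annotated start codons read ATG. A gene was counted when a summit lay within 1000 bp of any of its starts. Counts per library were tested by exact permutation of the 4 libraries. Replicates are described as biological in the study, and p-values measure the spread between these libraries only. The members, classes, partner list and words were chosen with earlier results of these data known. Full values were given for each widely used gene and each other gene with a peak. The partner list also asked for symbols starting with Vma. The only match, Vmat, is a monoamine transporter and was left out. Alternatives changed the distance, the assignment of peaks, the q threshold, the overlap, the depth, the class lists, the replicates and the word window. Scripts were tested on simulated data. Python 3.11.15, pandas 2.3.3 and scipy 1.17.1 were used.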

Additional observations from a re-analysis of the deposited data

How the results depend on the processing

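The difference of 17.5 Vha genes between groups kept its direction under every alternative tried, but was 6.0 among genes with no other start within 1000 bp, and leaving out 1 library gave 16.0 to 19.0. With the replicate numbers as a block (sign flips within numbers), the difference was 17.5 and the exact p was 0.5, the smallest that 2 pairs can give. The number of genes with a site, 17, became 6 when genes with another start within 1000 bp were left out. That was 6 of the 17 Vha genes without such a start (35.3%), beside 25.9% of all such genes. The number was also 6 when sites had to be callable at Control depth, and 17 to 20 with 1 library left out. It was 14 with an overlap of 50% of both peaks and 14 with the nearest start only. At 500 bp it was 15, at −log10 q of 5 or more 16, and at 2000 bp 19. The difference in share between widely used and tissue-restricted genes, 84.6 percentage points, was 84.6 with either 3xFLAG-Da library left out. It fell to 69.2 at 2000 bp, where VhaPPA1-2 and VhaAC39-2 gained a peak, and to 79.0 when a peak counted only for its nearest start, where Vha44, Vha100-2 and Vha16-5 lost theirs. It was 78.4 with Vha100-1 added to the widely used genes and 100 among genes with no other start within 1000 bp. The mean of the 2 median fold percentiles went from 70.7 to 70.2 with the summit nearest to a start in place of the strongest. Genes with a preferred E-box in both lists rose from 5 to 9 with a window of 100 bp each side, where the shares over all genes with a peak also rose, from 18.8% to 32.4% in replicate 1 and from 23.7% to 39.0% in replicate 2. The low depth of the Control lists and the 2 libraries a group limit what can be said of absence from Control and of every p.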

Other observations

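The promoter window from 250 bp before to 50 bp after each start was also searched for the palindrome TCACGTGA, which MiT/TFE factors such as Mitf are known to bind, on both strands. It was present at 2 of 33 Vha genes, Vha68-2 and Vha44 (6.06%), and at 28 of the 13968 protein-coding genes whose window could be read. Its core CACGTG was present at 5 Vha genes (15.2%), beside 5.33% of all genes, namely Vha68-2, Vha55 and Vha44 and, outside the widely used class, VhaM9.7-d and VhaAC45RP. These E-boxes did not lie at the strongest 3xFLAG-Da summits, none of which had a CACGTG within 50 bp in either list. The word was also rare there over all genes with a peak, at 1.20% in replicate 1 and 2.16% in replicate 2. The distances from CACGTG to the nearest summit were 58 and 69 bp at Vha44, 130 and 128 bp at Vha55, and 1095 and 1094 bp at Vha68-2, where it belongs to another start than the one beside the peak. The Vha68-2 and Vha55 sequences are shown to set them beside the summit windows, at 2L:12975292-12975321 and 3R:12627756-12627785 on the strand of each gene:

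Vha68-2: tcaaagctctgtCACGTGaaacgaaagctc
Vha55: gtcatgtgacggCACGTGacgtcacagcag

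Another E-box, CACATG, was present in the promoter windows of 8 of 15 widely used genes (53.3%) and 1 of 13 tissue-restricted genes (7.69%), beside 13.2% of all genes. Widely used genes more often had several starts than tissue-restricted genes, so more sequence was searched per gene in that class. At the strongest summits CACATG was present at 0 of 20 Vha genes in replicate 1, beside 3.98% of all genes with a peak. In replicate 2 it was present at 2 of 18 (Vha14-1 and VhaM9.7-b), beside 3.73%. These words were chosen after their values were seen, and no test was made of them.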
